A study of Mus musculus with 8 samples.

Results

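Tuft cell genes were examined in RNA-Seq data of cancers of the gastric squamous-columnar junction (SCJ), the line where the squamous forestomach meets the glandular stomach. The set comprised 8 genes chosen by symbol (Dclk1, Trpm5, Pou2f3, Avil, Gnat3, Gfi1b, Il25 and Chat), and all 8 were found among the 23361 genes of the table. The 5 cancers had the genotype Trp53-/-Rb1-/- and came from mice that carried the Lgr5 eGFP-Ires-CreERT2 knock-in, both Trp53 loxP/loxP and Rb1 loxP/loxP, and the Ai9 reporter. The Lgr5 allele drives a tamoxifen-activated Cre that deletes Trp53 and Rb1 in Lgr5-expressing cells and switches on the tdTomato reporter. Tamoxifen was injected at 6 to 10 weeks of age, and tumors were dissected along their tdTomato borders at least 250 days later. The 3 controls were the SCJ compartment of stomachs of age-paired mice, given as wild type. Each library thus holds RNA of a mixed tissue. In such bulk samples fewer tuft cells, less RNA per tuft cell and changes in other cells that make these genes cannot be told apart.

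Tuft cells, also called brush or caveolated cells, are rare chemosensory cells of the epithelium of the stomach, intestine and airways. They sense luminal substances with the G protein and cation channel cascade of taste cells, depend on the transcription factor Pou2f3, and answer with interleukin-25, eicosanoids and acetylcholine, which call in type 2 immune cells and act on neighbouring epithelium and nerves. Dclk1 (a microtubule-associated kinase) and Avil (advillin, an actin-bundling protein of the villin family found in the apical tuft) are widely used as their markers.

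The level of these genes was low in both tissues, with advillin as the exception. Of the 8 genes, 5 were detected, and 4 of these 5 were never above 3 FPKM. FPKM stands for fragments per kilobase of transcript per 1000000 mapped fragments, a level corrected for transcript length and here deposited as whole numbers. Gfi1b, Il25 and Chat were listed at 0 in all 8 libraries, the controls included. None of the 5 detected genes passed the test between cancers and controls (limma on log2(FPKM + 1), Benjamini-Hochberg adjusted p under 0.05), so 0 were higher and 0 lower in the cancers, whereas 34.5% of the 14357 genes tested passed it (16.2% higher and 18.3% lower). At an unadjusted p under 0.05, 1 of the 5 passed, compared with 47.9% of all genes. All 5 had a log2 fold change below 0, with a median of -0.79 beside a median of -0.04 over all genes tested. The methods give 3 control stomachs, but neither they nor the labels say that each cancer came from its own mouse, so p-values measure the spread between these samples, which for the cancers may not be that between mice.

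The libraries differed in ways that bear on such values. FPKM summed to between 403569 and 573858 in the cancers and to between 887141 and 992550 in the controls, and the 10 most abundant genes took 11.1% to 19.6% and 39.3% to 44.3% of these sums. Depth is unknown, so values of 0, 1 and 2 FPKM carry only the steps of rounding and no counting interval can be given. Rb1 ranged from 4 to 6 FPKM in the cancers and from 9 to 10 in the controls (-0.90 on the log2 scale, limma adjusted p = 0.0059). Its call was kept in all 8 fits that left out a library. With each library rescaled to the same sum Rb1 was at -0.054 (limma adjusted p = 0.84), on a scale where the median of all genes tested was 0.81. Trp53 ranged from 12 to 30 and from 16 to 19 (-0.08 on the log2 scale, limma adjusted p = 0.87). These gene-wide values cannot show the deleted exons.

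Advillin was by far the most abundant member, and which cells gave its reads was not tested. Avil (RefSeq NM_009635, mm10 chr10:127000709-127020994) had 2, 85, 30, 49 and 43 FPKM in cancers 1 to 5 and 113, 75 and 100 FPKM in controls 1 to 3. Cancer 1 was far below all other samples, cancer 2 lay above the lowest control, and the groups therefore overlapped. The mean was 41.8 ± 30.2 FPKM (SD, n = 5) in the cancers and 96.0 ± 19.3 FPKM (SD, n = 3) in the controls. In limma this was -1.77 on the log2 scale (standard error 0.997, 95% interval -4.08 to 0.54, adjusted p = 0.19). Over the 56 ways to divide 8 samples into 5 and 3, the exact permutation test (two-sided) gave p = 0.125, where 0.0179 is the smallest p possible. Without cancer 1 limma gave -0.96 (adjusted p = 0.080), so this library moved the size of the difference but no call.

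The members of the taste-type cascade and their regulator were near the rounding limit. Trpm5 (NM_020277, chr7:143071529-143094642), the calcium-activated cation channel that depolarizes taste and tuft cells, had 0, 2, 0, 2 and 1 FPKM in cancers 1 to 5 and 2, 2 and 3 FPKM in the controls. Gnat3 (NM_001081143, chr5:17962570-18019668), the G protein subunit gustducin, had 0, 1, 0, 0 and 1 FPKM in the cancers, against 2, 1 and 1 FPKM in the controls. Pou2f3 (NM_011139, chr9:43123939-43205755), the POU factor required for the tuft lineage, had 0, 1, 0, 1 and 1 FPKM in the cancers, against 1, 2 and 1 FPKM in the controls. Cancers 1 and 3 were thus at 0 for all of these genes, while cancers 2 and 5 listed each of them and cancer 4 all but Gnat3. Every control listed all of them at 1 or more. The groups overlapped or touched for each detected member, so 0 of 5 were free of overlap, compared with 34.1% of all genes tested (14.4% higher and 19.8% lower in the cancers).

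None of these differences passed the adjusted test. The log2 fold change of Trpm5 was -0.89 (standard error 0.44, 95% interval -1.91 to 0.13, adjusted p = 0.15 from limma, two-sided exact permutation p = 0.20). That of Pou2f3 was -0.59 (standard error 0.33, 95% interval -1.36 to 0.17, adjusted p = 0.19 from limma, exact permutation p = 0.27). Gnat3, the gene that passed only without adjustment (p = 0.044), had a log2 fold change of -0.79 (standard error 0.33, 95% interval -1.56 to -0.03, adjusted p = 0.095 from limma, exact permutation p = 0.125). The adjusted p of these genes did depend on the scaling. After quantile normalization of the libraries Trpm5 (-1.17, adjusted p = 0.042), Gnat3 (adjusted p = 0.039) and Pou2f3 (-0.86, adjusted p = 0.0498) were past the threshold in limma, and the same 3 genes passed when limma weighted the samples by their quality (adjusted p of 0.019, 0.025 and 0.017). Of all genes, 13.2% were lower in the fit with quantile normalization and 29.5% in the fit with sample weights.

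Dclk1 (NM_019978, chr3:55242526-55539068) was the flattest of the detected genes. It had 2, 2, 1, 2 and 2 FPKM in the cancers and 2 FPKM in every control, so that cancer 3 alone differed, by 1 rounding step. Its log2 fold change was -0.12 (standard error 0.17, 95% interval -0.52 to 0.29, adjusted p = 0.62 from limma, exact permutation p = 1). Dclk1 is also made outside tuft cells, for example in neurons, and which cells gave its reads was not tested.

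**Figure D1:**
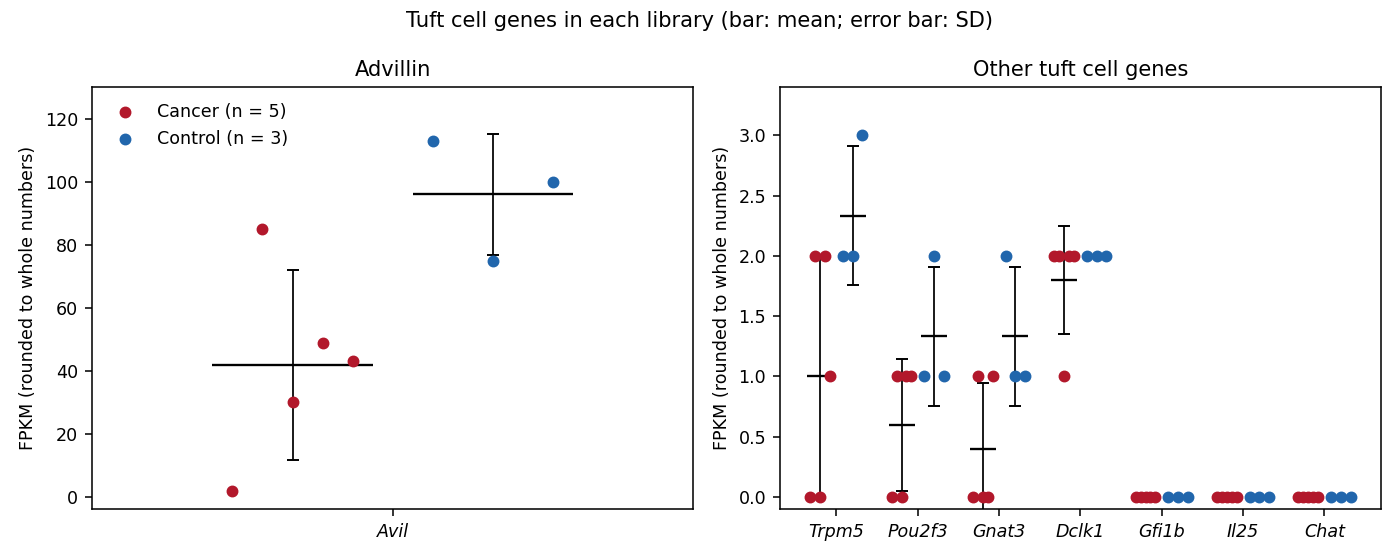
FPKM of the 8 tuft cell genes in each library, with Avil on its own axis. Points are libraries (5 cancers, 3 controls), horizontal bars are means and error bars SDs. Avil spans 2 to 85 FPKM in the cancers and 75 to 113 in the controls, the other detected genes stay at or below 3 FPKM, and Gfi1b, Il25 and Chat are at 0 throughout.

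**Figure D2:**
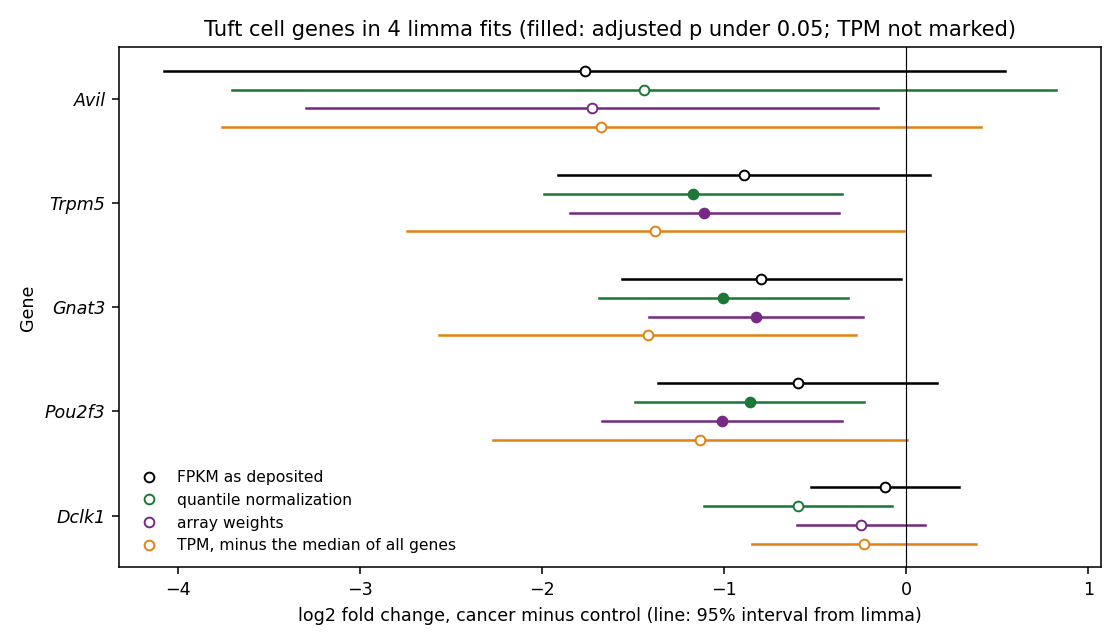
Log2 fold change (cancer minus control, x axis) of the 5 detected tuft cell genes with 95% intervals, from limma on the FPKM as deposited, after quantile normalization, with array weights, and on TPM with the median of all genes subtracted. Filled points had an adjusted p under 0.05, and TPM points are unfilled because the test applies to the values before the median was subtracted: Trpm5, Gnat3 and Pou2f3 were filled with quantile normalization and array weights, and Avil and Dclk1 in no fit.

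The direction of Dclk1 also depended on the scaling. With each library rescaled to a sum of 1000000 (TPM), all genes tested moved to a median of 0.81 on the log2 scale, and Dclk1 turned to 0.58 (limma adjusted p = 0.097). Avil, Trpm5, Gnat3 and Pou2f3 stayed below 0 on this scale, at -0.86, -0.57, -0.61 and -0.32. Relative to the shift of all genes the log2 fold changes were -1.67 for Avil, -1.42 for Gnat3, -1.38 for Trpm5, -1.13 for Pou2f3 and -0.23 for Dclk1.

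The remaining 3 members were not detected. Il25 (NM_080729, chr14:54932695-54935836), the cytokine of the tuft cell and type 2 lymphoid cell circuit, Chat (NM_009891, chr14:32408203-32465909), the enzyme of acetylcholine synthesis, and Gfi1b (NM_008114, chr2:28609450-28621982), a transcriptional repressor of tuft, megakaryocytic and erythroid cells, were each listed at 0 FPKM in all libraries. An exact 0 in rounded FPKM can stand for a low level or a failed estimate, so these values do not show that the genes are silent. Chat shares its listed locus with Slc18a3, the vesicular acetylcholine transporter that lies within the same gene, and Slc18a3 was also listed at 0 in all 8 libraries.

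Promoter sequence is shown for Avil, Gnat3 and Trpm5, as effector genes whose lowest values include cancers 1 and 3, because Pou2f3 belongs to the POU factors that bind the octamer ATGCAAAT. The windows run from 250 bases before to 50 bases after the annotated start (RefSeq, GRCm38.p6, each 5′ to 3′ on the gene's own strand), at chr10:127000459-127000758 on the plus strand for Avil, chr5:17962320-17962619 on the plus strand for Gnat3 and chr7:143094593-143094892 on the minus strand for Trpm5. Capitals mark the first 6 bases of the octamer, ATGCAA, on either strand (TTGCAT on the opposite strand).
Avil: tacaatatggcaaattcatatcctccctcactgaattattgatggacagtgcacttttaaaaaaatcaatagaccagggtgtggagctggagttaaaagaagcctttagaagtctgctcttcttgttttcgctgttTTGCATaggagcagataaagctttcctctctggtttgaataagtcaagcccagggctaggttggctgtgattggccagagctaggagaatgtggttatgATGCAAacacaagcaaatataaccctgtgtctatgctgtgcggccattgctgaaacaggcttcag
Gnat3: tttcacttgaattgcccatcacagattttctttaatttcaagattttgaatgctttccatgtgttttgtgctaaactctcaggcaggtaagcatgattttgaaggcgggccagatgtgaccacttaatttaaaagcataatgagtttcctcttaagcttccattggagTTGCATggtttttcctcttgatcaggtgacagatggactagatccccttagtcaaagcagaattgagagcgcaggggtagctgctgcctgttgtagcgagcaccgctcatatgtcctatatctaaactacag
Trpm5: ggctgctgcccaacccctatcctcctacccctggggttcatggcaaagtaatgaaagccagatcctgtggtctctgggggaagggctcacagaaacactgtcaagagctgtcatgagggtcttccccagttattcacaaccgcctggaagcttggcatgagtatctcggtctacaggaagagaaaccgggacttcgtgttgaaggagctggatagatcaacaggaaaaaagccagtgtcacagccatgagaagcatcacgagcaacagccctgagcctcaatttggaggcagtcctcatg
The Avil window holds the 6 bases at -114 (opposite strand) and at -15 (gene strand), the Gnat3 window at -82 (opposite strand), and the Trpm5 window does not hold them. The whole octamer, searched on both strands, was in 0 of the 7 windows of the 6 tuft cell genes with an entry and in 1.74% of all 32817 windows of the table. Its first 6 bases were in 2 of the 7 and in 10.7% of all windows. These are letter matches in a short window and not measured binding sites.

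The companion genes of the taste-type cascade were then read as a group. Of 9 genes tested, the members Gnat3 and Trpm5 included, 3 were lower and 0 higher in the cancers, beside 18.3% lower and 16.2% higher over all genes. The median log2 fold change, -0.89, was that of the member Trpm5 itself. Itpr2 and Itpr3, receptors that release calcium from internal stores, had 1 to 2 and 17 to 36 FPKM in the cancers and 4 to 9 and 55 to 73 FPKM in the controls. Their log2 fold changes were -1.70 (adjusted p = 0.0035) and -1.21 (adjusted p = 0.013) in limma. Trpm4, the channel closest to Trpm5, had 2, 14, 3, 7 and 7 FPKM in the cancers, against 18, 14 and 24 in the controls (-1.57 on the log2 scale, limma adjusted p = 0.047). That of Trpm4 was past the threshold in only 1 of the 8 fits that left out a library (adjusted p up to 0.15), Itpr3 lost its call only without control 3 (adjusted p = 0.053), and Itpr2 kept it in all 8. After quantile normalization Trpm4 and Itpr3 were not past it (adjusted p of 0.071 and 0.070). After TPM rescaling only Itpr2 of these was past the threshold (-1.12 on the log2 scale, limma adjusted p = 0.018). Itpr2 and Itpr3 are used by many other cells.

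Of the tuft transcription factors and cofactors 9 were tested, Pou2f3 among them, with 0 higher, 0 lower and a median log2 fold change of -0.27. The other structural and signalling genes reported in tuft cells moved both ways, with 8 of 28 higher, 4 lower and a median of 0.28. Over all genes tested 16.2% were higher and 18.3% lower. Tmem176a, a membrane protein, rose from 33.7 ± 7.02 FPKM (SD, n = 3) in the controls to 132.6 ± 8.99 (SD, n = 5) in the cancers (1.96 on the log2 scale, limma adjusted p = 0.00057). Ildr1, a tricellular junction protein also made by endocrine cells, had 8 to 20 FPKM in the cancers and 0 to 1 in the controls (3.11 on the log2 scale, limma adjusted p = 0.0015). Kctd12, an auxiliary subunit of GABA-B receptors, had 10 to 53 and 3 to 5 FPKM (2.25 on the log2 scale, limma adjusted p = 0.019). Espn (espin), an actin bundler of microvilli like Avil, had 0, 14, 1, 7 and 4 FPKM in the cancers, against 23, 26 and 38 in the controls (-2.83 on the log2 scale, limma adjusted p = 0.035). The calls of Kctd12 and Espn were lost when any 1 control was left out, and that of Espn also without cancer 3 or 5 (adjusted p up to 0.071 and 0.11). On the TPM scale Tmem176a, Ildr1 and Kctd12 were past the threshold, and Espn was not (log2 fold change -2.26, adjusted p = 0.066).

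Some of the low genes of these lists were, like Trpm5, Gnat3 and Pou2f3, at 0 in cancers 1 and 3. The comparison was chosen after the values had been seen and carries no test: genes of at least 1 FPKM in every control and a control mean of at most 3 FPKM were counted where a cancer listed them at 0. Of the 4 tuft cell genes that met this (Dclk1, Trpm5, Pou2f3 and Gnat3), 3 were at 0 in cancer 1, 0 in cancer 2, 3 in cancer 3, 1 in cancer 4 and 0 in cancer 5. Of 18 companion tuft genes, 7, 2, 7, 1 and 1 were at 0 in cancers 1 to 5, and 6 of the 18 were at 0 in both cancer 1 and cancer 3. Only 4 of the 18 were at 0 in both and listed at 1 FPKM or more in each of cancers 2, 4 and 5 (Gng13, Sh2d7, Ly6g6d and Alox5). Over all 2633 genes of this kind the share at 0 was 14.5% in cancer 1, 11% in cancer 3 and between 6.76% and 8.89% in the others. Among such low genes cancers 1 and 3 thus held the largest shares of zeros. Over all genes of the table the share at 0 was 42.12%, 41.26%, 40.02%, 40.28% and 39.97% in cancers 1 to 5. Among the companions Gng13, the gamma subunit that partners gustducin, had 0, 1, 0, 3 and 1 FPKM in the cancers, against 3, 2 and 3 in the controls. Sh2d7, an adaptor protein, had 0, 2, 0, 2 and 2 FPKM in the cancers, against 2, 1 and 1 in the controls. Ly6g6d, a Ly6 surface protein, had 0, 1, 0, 3 and 1 FPKM in the cancers, against 3, 1 and 3 in the controls. Alox5, the first enzyme of leukotriene synthesis, had 0, 2, 0, 2 and 2 FPKM in the cancers, against 2, 1 and 2 in the controls. Rgs13, a regulator of G protein signalling, was at 0 in cancer 1 only, with 4, 1, 5 and 3 FPKM in cancers 2 to 5 and 3, 3 and 2 in the controls. For all of these genes but Rgs13, cancers 2, 4 and 5 lay within 1 FPKM of the control range. The other companions did not have this pattern. Siglec5 and Nebl were at 0 also in cancer 2, Fam221a had 4 to 7 FPKM in the cancers and 1 in each control, and Ptges had 1 to 5 and 1 to 2. Inpp5d, a phosphatase of blood cells, had 11, 2, 3, 2 and 3 FPKM in the cancers and 1 in each control, and Spib, a transcription factor of B cells and tuft cells, had 13, 1, 0, 2 and 1 FPKM in the cancers and 1 in each control.

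**Figure D3:**
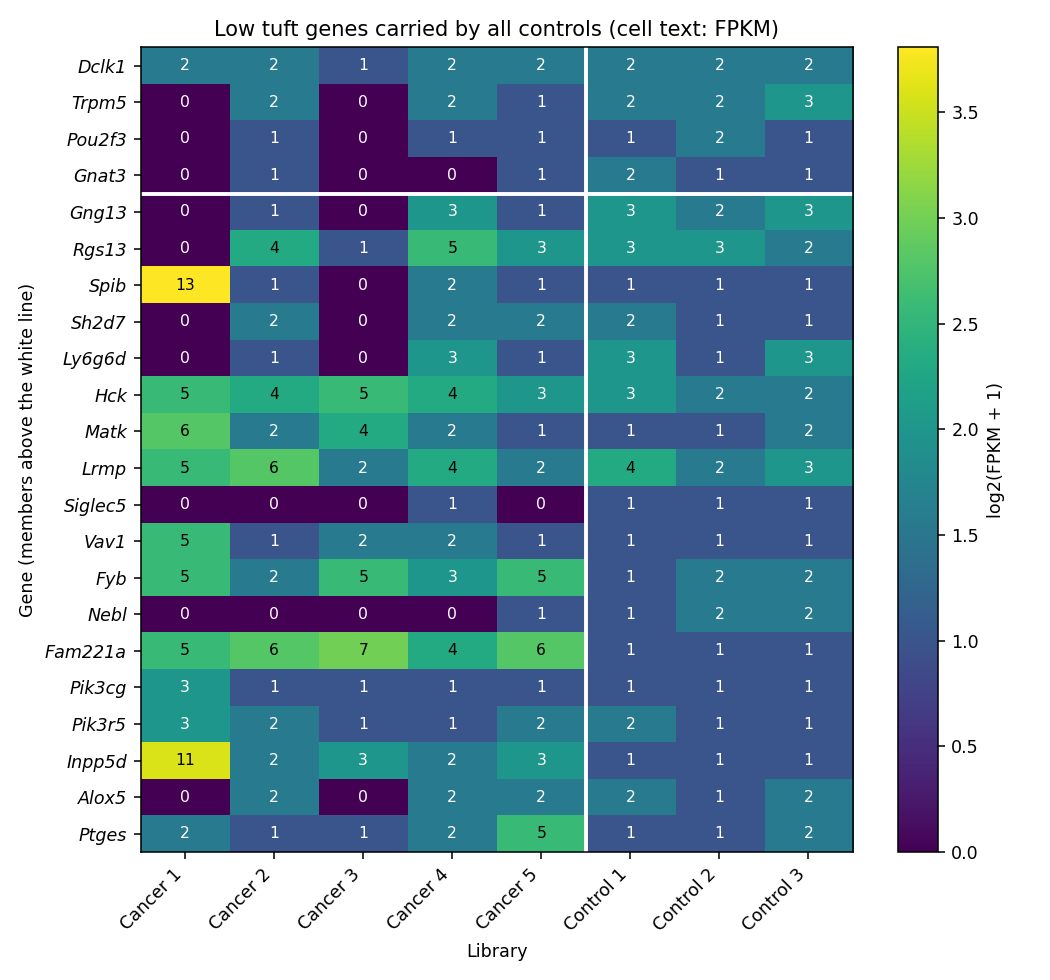
Rounded FPKM (cell text) and log2(FPKM + 1) (color) of the tuft cell genes, above the white horizontal line, and the companion tuft genes that had at least 1 FPKM in every control and a control mean of at most 3 FPKM. Columns are the 8 libraries, and cancers 1 and 3 hold 3 zeros among the 4 tuft cell genes and 7 among the 18 companions each.

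Markers of normal stomach epithelium varied over the same cancers. They included parietal cell markers, although the paper describes the first gland at the SCJ as lacking parietal cells. The 7 mucous cell markers summed to 692, 74468, 5273, 46371 and 15960 FPKM in cancers 1 to 5 and to between 146267 and 214383 FPKM in the controls. The order of this sum over the cancers, from cancer 2 through 4, 5 and 3 to cancer 1, was that of Avil. Parietal and chief cell markers summed to 9, 6085, 803, 9525 and 767 FPKM in the cancers and to between 10795 and 35641 in the controls, and squamous markers summed to 2, 31, 887, 3409 and 1217 and to between 4608 and 7262. Pgc, the progastricsin gene of chief cells, was at 28832 FPKM in control 1 but listed at 0 in controls 2 and 3, so an exact 0 occurs in this table also for abundant genes. In cancers 1 to 5 Pgc had 3, 4546, 581, 6762 and 468 FPKM. It thus made up most of the parietal and chief sum in cancers 2 to 5 and none of it in controls 2 and 3. By the test 1 of 7 mucous, 3 of 9 parietal and chief and 2 of 10 squamous markers were lower and 0 were higher, with medians of -3.81, -3.92 and -3.80 on the log2 scale. Over all genes tested 18.3% were lower and 16.2% higher. Gkn1, a secreted protein of surface mucous cells, had 491 to 12040 FPKM in the cancers and 33163 to 41821 in the controls (-3.81 on the log2 scale, limma adjusted p = 0.034), and was past the threshold in 3 of the 8 fits without a library. After quantile normalization it was at -1.70 (limma adjusted p = 0.23). The part of such remaining epithelium in the tuft gene values was not tested.

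Avil differed between the groups by a smaller factor than the mucous markers. Per 1000 FPKM of summed mucous markers there were 2.89, 1.14, 5.69, 1.06 and 2.69 FPKM of Avil in cancers 1 to 5 and 0.55, 0.51 and 0.47 in the controls, so all cancers were above all controls in this ratio. Per 100 FPKM of Krt18, a keratin of simple epithelium and of tuft cells, Avil was at 1.44 in cancer 1, between 10.2 and 13.4 in cancers 2 to 5 and between 11.4 and 17.9 in the controls. Both ratios were chosen after the values had been seen and are descriptions.

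**Figure D4:**
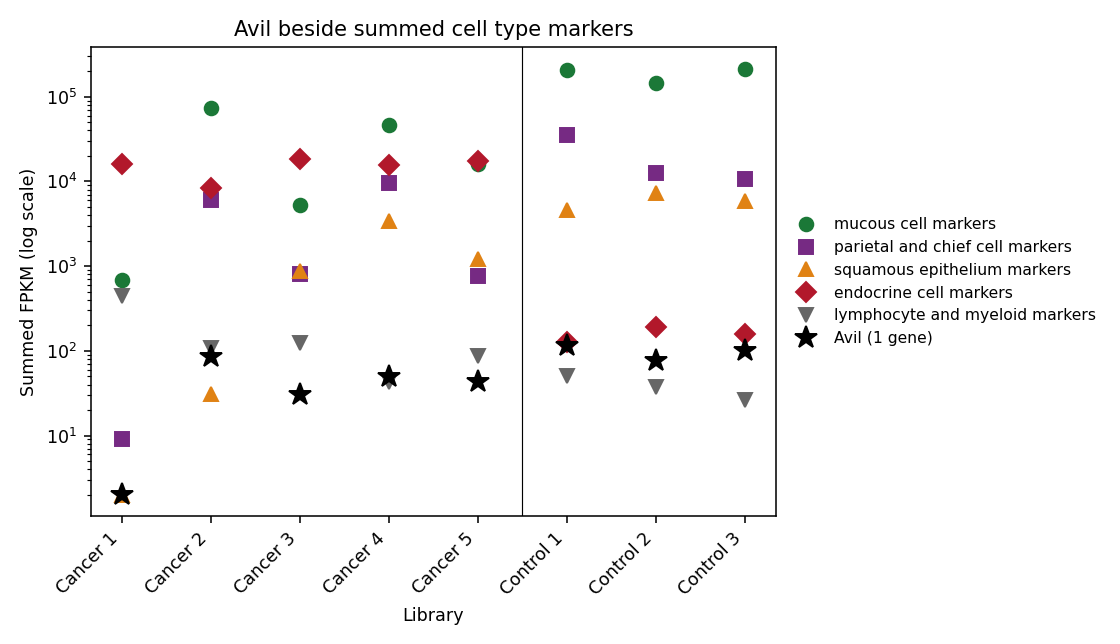
FPKM of Avil and summed FPKM of 5 marker lists in each library, on a log scale. Cancer 1 is lowest for Avil (2 FPKM) and for the mucous (692), parietal and chief (9) and squamous (2) sums, while its lymphocyte and myeloid sum is the highest (445), and the endocrine sum is at least 8261 in every cancer.

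The genes with the profile most like each detected member were found by the root mean square difference of log2(FPKM + 1) over the 8 samples after centring. For Avil these were Fut2, a fucosyltransferase of gastric surface mucous cells (0.26), A4gnt, the glycosyltransferase of gland mucous cells (0.38), and Spdef, a transcription factor of mucous and goblet cells (0.38). Fut2 had 2, 56, 23, 48 and 48 FPKM in the cancers, against 107, 68 and 67 in the controls. For Trpm5 they were Nudt8 (0.15), Prr15l (0.15) and Fbp2, a fructose-bisphosphatase (0.19). Nudt8, for example, had 5, 12, 5, 15 and 9 FPKM in the cancers, against 16, 17 and 21 in the controls. At 0 to 2 FPKM likeness means little: C1rl and Neu3 had the very values of Pou2f3, Cdk6 and Cyp4f15 those of Gnat3, and Wars2 those of Dclk1, and the next genes were Lix1 (0.14), Slc25a24 (0.12), and Guk1 and Vps4a (0.12 each).

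Genes on the output side of the tuft cell were examined from lists. Of 9 eicosanoid synthesis genes tested 0 were higher and 0 lower (median log2 fold change 0.07). Of 12 genes of the interleukin-25 circuit 3 were lower and 0 higher (median -0.41), beside 18.3% lower and 16.2% higher over all genes tested. Il33, an epithelial and stromal alarmin that acts beside interleukin-25, had 9, 22, 8, 33 and 14 FPKM in the cancers, against 295, 133 and 45 in the controls, a wide spread among the controls but with no overlap (-2.93 on the log2 scale, limma adjusted p = 0.014). The call was lost without control 1 or control 2 (adjusted p up to 0.054). Stat6, the transcription factor downstream of the interleukin-4 receptor, had 16 to 23 and 33 to 39 FPKM (-0.94 on the log2 scale, limma adjusted p = 0.0043). Its call was kept in all 8 fits without a library and with quantile normalization (-0.61, limma adjusted p = 0.023). With TPM Stat6 was at 0.00092 (limma adjusted p = 0.997), on a scale where the median of all genes tested was 0.81. Gata3, the factor of type 2 lymphocytes that squamous cells also use, had 1 FPKM in cancer 4, 0 in the other cancers and 1 in each control (-0.80 on the log2 scale, limma adjusted p = 0.045), and was past the threshold in 1 of the 8 fits without a library.

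Of 11 acetylcholine genes tested 3 were higher and 3 lower (median log2 fold change -0.60), beside 16.2% higher and 18.3% lower over all genes tested. Slc44a4, a choline transporter-like protein of epithelium, had 7, 55, 17, 31 and 35 FPKM in the cancers, against 146, 84 and 99 in the controls (-2.12 on the log2 scale, limma adjusted p = 0.029). Its call was lost without cancer 3 or any 1 control (adjusted p up to 0.11), and with TPM (-1.19, adjusted p = 0.072). The receptor subunit Chrnb2 had 3 to 9 FPKM in the cancers, the muscarinic receptor Chrm4 had 1 to 9, and both were listed at 0 in the controls (adjusted p of 0.0027 and 0.011 from limma). Ache, which breaks down acetylcholine, had 3 to 34 FPKM in the cancers and 1 in each control (2.48 on the log2 scale, limma adjusted p = 0.027), a call lost without any 1 control (adjusted p up to 0.085). With Chat, Slc18a3 and the choline transporter Slc5a7 at 0 in all 8 libraries, the acetylcholine genes that were higher in the cancers were receptors and the degrading enzyme.

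Other cell types that use tuft cell genes were read beside them. For the counts that follow, 16.2% of all genes tested were higher and 18.3% lower. Of 8 enteric neuron markers tested 4 were higher and 0 lower (Snap25 4.66, Uchl1 4.16 and Ret 2.08 on the log2 scale, and Elavl4 with 1 to 4 FPKM in the cancers and listed at 0 in the controls). All 11 endocrine markers were higher (median 5.82), among them Chga with 3247 to 12837 FPKM in the cancers and 108 to 152 in the controls, and Syp with 37 to 87 and 4 to 10. Dclk1 stayed at 1 to 2 FPKM in these cancers. For the blood lineages that use Gfi1b, 1 of 5 megakaryocyte markers was higher (Vwf, log2 fold change 1.13, also made by endothelium) and 1 of 3 erythroid markers lower (Epor, -1.19). The call of Vwf was lost without control 1 or 3 and that of Epor without control 2 or 3 (adjusted p up to 0.076 and 0.070 from limma). Vwf was also not past the threshold with quantile normalization (0.60, limma adjusted p = 0.13), and Epor not with TPM (-1.08, limma adjusted p = 0.085). Klf1 was at 0 in all libraries, and Itga2b and Alas2 were at 0 or 1 FPKM. Mast cell markers included 5 of 8 lower and 1 higher, with Cpa3 at 0 to 1 FPKM in the cancers and 2 to 6 in the controls (-2.20 on the log2 scale, limma adjusted p = 0.0050). Lymphocyte and myeloid markers, 2 of 11 higher and 0 lower, summed to 445, 109, 123, 43 and 87 FPKM in the cancers and to between 26 and 50 in the controls, highest in cancer 1, where Spib and Inpp5d were also highest. Smooth muscle markers were 0 of 10 higher and 0 lower. Of 10 hepatocyte markers 6 were tested, with 3 higher and 0 lower. The higher ones were Ahsg (8.94 on the log2 scale), Ttr (3.52) and Tat (6 to 34 FPKM in the cancers, listed at 0 in the controls). The whole list summed to between 1844 and 4552 FPKM in the cancers and to between 1272 and 1740 in the controls. Without Ahsg, Ttr and Tat the sum was lower in every cancer than in any control, so the rise was not shared by the list. The part of these cells in the tuft gene values was not tested.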

How the data were processed

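RNA-Seq was carried out on 5 SCJ cancers and 3 control SCJ tissues (polyA+ directional libraries). Per the labels and the study's methods, the authors trimmed reads with cutadapt 1.8, mapped them (the processing notes name TopHat2 2.0.13), ran cuffquant on UCSC mm10 genes and obtained normalized FPKM from Cuffnorm 2.2.1. The deposited values are FPKM rounded to whole numbers (100% whole), treated as a score and not as counts. Whether genes were counted by strand is not given in the sources used here. Depth per library is unknown, so precision rests on the replicates (n = 5 and 3).

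The 14357 genes that reached 1 FPKM in 3 or more samples entered the test on log2(FPKM + 1), a scale that understates changes of low genes, with limma 3.58.1 (eBayes with trend, R 4.3.3), Benjamini-Hochberg adjustment and a threshold of 0.05. Of the 8 tuft cell genes 5 passed this filter. For single members an exact permutation test (two-sided, 56 splits) was added. The fit was tested on simulated data. All 8 members matched RefSeq (GRCm38.p6), and 6 had promoter windows. The members and lists were chosen with earlier results of these data known. Named genes are the members, up to 4 genes of each list with the largest change past the threshold, defining markers of other cells, the 3 nearest profiles of each detected member, Trp53 and Rb1. Pgc, Krt18, Gng13, Sh2d7, Ly6g6d, Alox5, Rgs13, Inpp5d, Spib, Siglec5, Nebl, Fam221a and Ptges were named after their values were seen. Tried as alternatives were a pseudocount of 0.1, other filters, TPM, quantile normalization, no trend, array weights, a replicate block and leaving out each library.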

Additional observations from a re-analysis of the deposited data

Results flagged for a closer look

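In 13 of 51 named genes 1 cancer stood apart from the other 4 by Dixon's criterion, where chance flags about 1 in 20 groups (2.55 genes here). With whole-number values a single rounding step suffices. Among the tuft cell genes only Dclk1 was concerned, with 1 FPKM in cancer 3 and 2 in the other cancers. Cancer 2 had 2 FPKM of Tpsb2, 1 of Cpa3 and 2 of Cma1, mast cell genes at 0 in the other cancers. Cancer 1 had 1 FPKM of Epor and 1 of Itga2b against 0. Vwf was at 1 FPKM in cancer 3 against 2. Cancer 4 had 2 FPKM of Itpr2 against 1, 1 of Gata3 against 0 and 4 of Aqp4, a water channel of parietal and chief cells, against 0 to 1. Cancer 5 had 129 FPKM of Uchl1 against 65 to 79, 2 of Itgam against 1 and 34 of Tat against 6 to 11.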

How the results depend on the processing

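The number of tuft cell genes higher in the cancers was 0 in all alternatives. The number lower was 0 with the deposited values and ranged from 0 to 0 with a library left out, but 3 with quantile normalization and 3 with array weights (Trpm5, Pou2f3 and Gnat3), where 1902 (13.2%) and 4239 (29.5%) of all genes were lower. Over all alternatives the adjusted p from limma ranged from 0.060 to 0.44 for Avil, 0.019 to 0.43 for Trpm5, 0.017 to 0.60 for Pou2f3, 0.025 to 0.32 for Gnat3 and 0.082 to 1 for Dclk1. The count of all genes past the threshold, 4948, became 3793 with quantile normalization, 7704 with TPM (7176 higher, 528 lower), 8148 with array weights and 1534 with the replicate block, and ranged from 2490 to 5252 with a library left out. It was 2490, 2643 and 2815 without controls 1, 2 and 3. The log2 fold change reversed with TPM for Dclk1 (0.58), Stat6 (0.00092) and Trp53 (0.86), and for Trp53 also with quantile normalization (0.13) and with a library left out (-0.29 to 0.027). On the TPM scale the median of all genes tested was 0.81. Among 692 further values of named genes that are no members 114 lost and 4 gained a call and 6 reversed. Deviations from the group mean in cancers and controls of equal replicate number correlated at -0.02, -0.19 and -0.10. With so few libraries these values cannot exclude a pairing or a shared batch. The block changed no call of a tuft cell gene. The causes of these shifts were not tested. Rounding to whole FPKM and the unknown depth limit what Trpm5, Gnat3, Pou2f3, Dclk1 and the genes at 0 can show.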
